A study of Mus musculus with 2 samples.

Results

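Brg1, the ATPase encoded by Smarca4 that powers the BAF chromatin remodelling complex, was mapped by ChIP-seq in mouse medulloblastoma, and its enriched regions (islands) are described here at 10 genes for stathmins and neuronal microtubule-associated proteins. The genes were chosen by family, with earlier results of these data known: Stmn1, Stmn2, Stmn3, Stmn4, Mapt, Map2, Map1a, Map1b, Map4 and Dclk1. Islands were counted for a gene when any base lay in its RefSeq extent or within 5 kb of it, and as distal when the nearest base lay over 5 kb and up to 50 kb away. The 10 genes are among 21887 protein-coding genes of the annotation, and 13 of the 5727 islands of the list were counted for them, with 2 further islands distal.

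The series has 1 ChIP library, made with the J1 antibody, and 1 input library made with no antibody, both from primary tumours of CAG-CreER, Rosa26-SmoM2 mice. SmoM2 is Smoothened, the Hedgehog transducer, in an activated form, and the tumours, which the labels call spontaneous, model the Shh type of medulloblastoma. CAG is a broadly active promoter, and CreER a Cre recombinase controlled by an oestrogen receptor ligand. The labels give J1 as recognising Brg1 and Brm, the paralogue encoded by Smarca2, so an island can hold either protein. The number of animals behind the library is not stated in the labels, the input is not analysed here, and an island list cannot be checked against markers of the tissue. With 1 ChIP library there is no replicate error and no comparison of conditions, so the values below describe this library, without tests. Absence from the list does not show that Brg1 was absent, because weaker binding can fall below the threshold of the authors' caller.

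Microtubules are polymers of tubulin that grow and shrink at their ends. Stathmins bind free tubulin dimers and favour shrinkage, an activity that phosphorylation turns off, whereas the MAP1, MAP2 and tau families bind along the polymer and stabilise it in axons and dendrites. In the cerebellum, granule neuron progenitors, from which Shh-type tumours arise, leave the cell cycle, extend parallel fibres and migrate inward, and both fibre growth and migration rely on microtubules.

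An island lay in the gene or within 5 kb for 8 of the 10 genes (Wilson 95% interval 49 to 94.3%), against 16.7% of all protein-coding genes. Because the genes were chosen with earlier results of these data known, this interval is no test against that share. The 8 comprised 3 of the 4 stathmin genes and 5 of the other 6 genes. Stmn3 and Map4 had none. All 13 islands touched the gene itself, so no count depended on the 5 kb margin. With the 2938 islands that held at least the list's median of 68 reads, 5 of the 10 genes had one, against 9.54% of all genes, and Stmn4, Map1a and Map1b dropped out. Gene length bears on such a count, since a longer gene offers more room. Under 20 kb, 2 of 3 of these genes (Stmn1 and Stmn4, not Stmn3) had an island, against 10.2% of all genes of that length. From 20 to 100 kb, 3 of 3 (Stmn2, Map1a and Map1b) did, against 19.4%. Over 100 kb, 3 of 4 (Mapt, Map2 and Dclk1, not Map4) did, against 39.9%. In each length class the share was above that of all genes, but each rests on 3 or 4 genes.

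**Figure D1:**
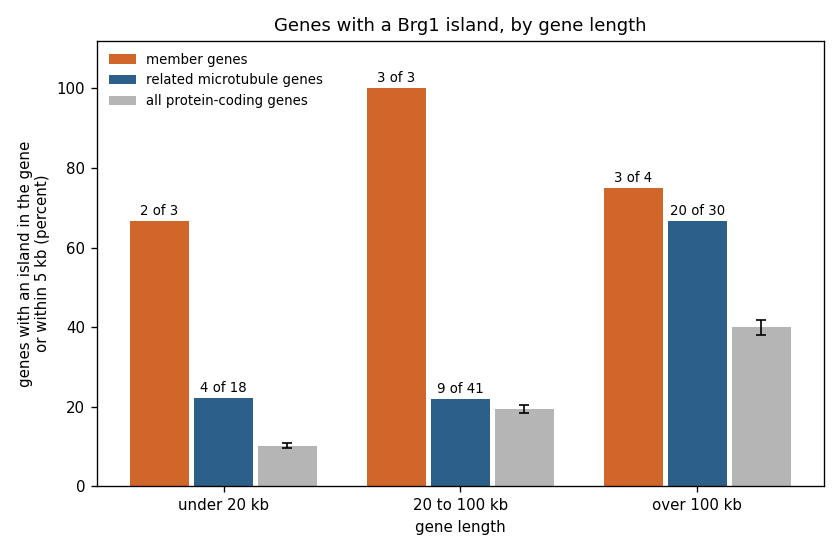
Percent of genes with a Brg1 island in the gene or within 5 kb (vertical axis) by gene length (horizontal axis), for the 10 stathmin and microtubule protein genes (orange), 89 related microtubule genes (blue) and all protein-coding genes (grey, with Wilson 95% intervals). The numbers above the orange and blue bars are genes with an island of genes in the class; among all genes the share was 10.2% under 20 kb and 39.9% over 100 kb.

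The islands took different places in the genes. Of the 13, 5 lay across an annotated gene end, 1 each at Stmn1, Stmn2, Stmn4, Map1a and Dclk1, and 8 lay wholly inside a gene, in Mapt, Map2, Map1b and Dclk1. An island across an end was present in 8.11% of all protein-coding genes, and one within 1 kb of either end in 9.69%; the same 5 genes met both definitions. Strand and transcription starts were taken from the RefSeq promoter table, which matched Stmn3, Map2, Map1a, Map1b, Map4 and Dclk1, that is 6 of the 10 genes. For Stmn1, Stmn2, Stmn4 and Mapt the ends are named by coordinate only.

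**Figure D2:**
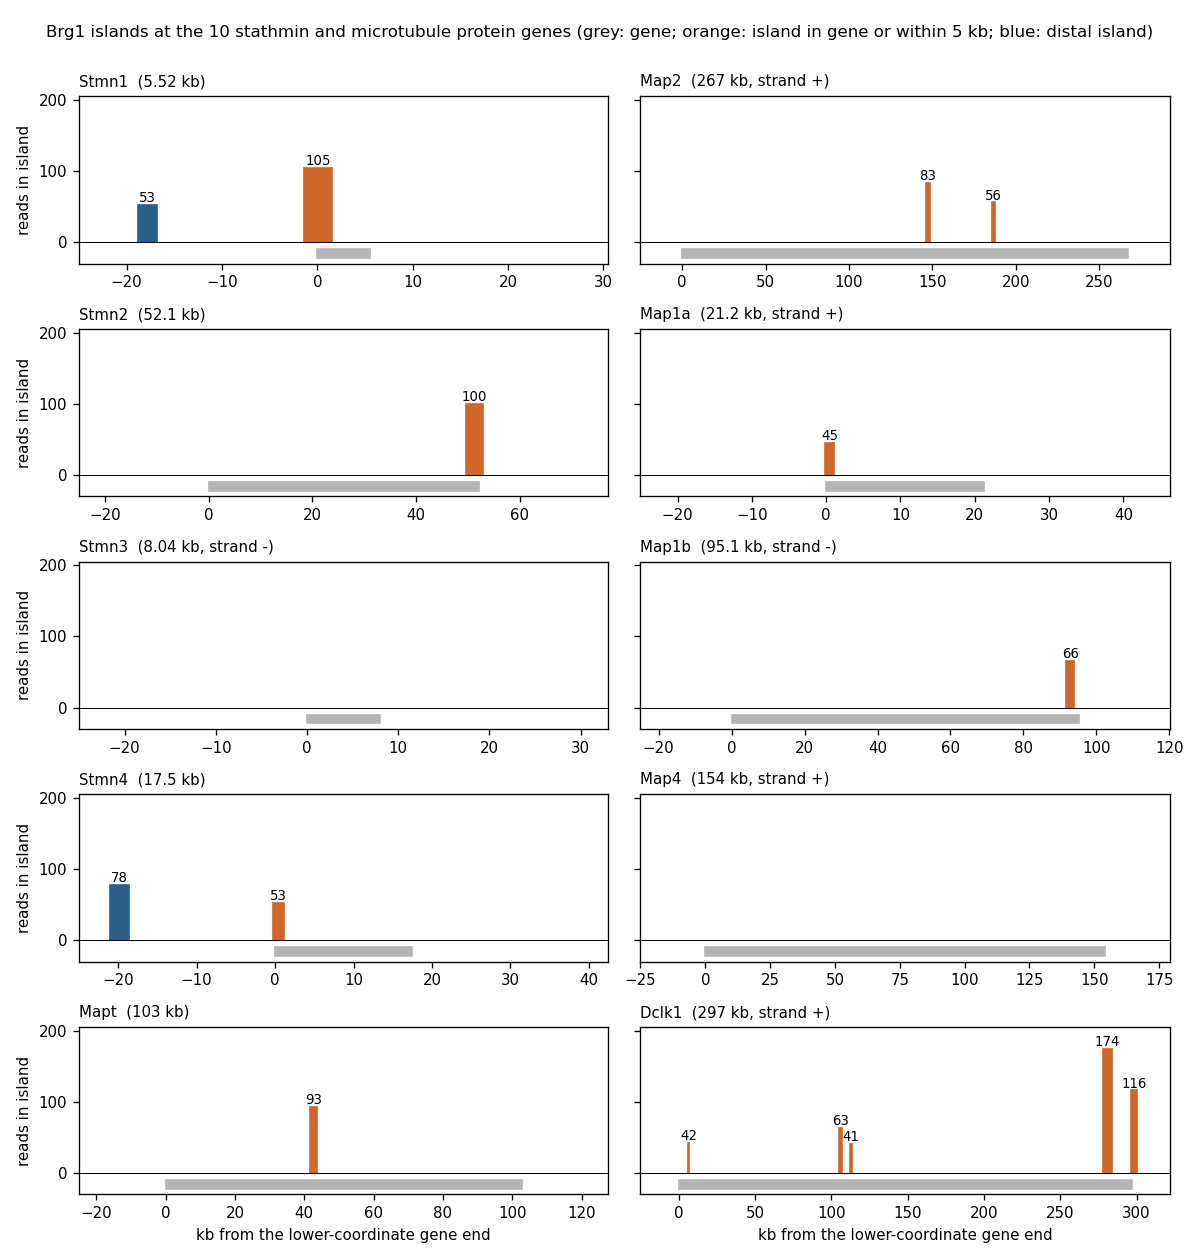
Each panel shows 1 gene as a grey bar, with distance in kb from its lower-coordinate end on the horizontal axis (each panel has its own scale) and the authors' read count of each island as the bar height. Orange islands touch the gene and blue islands are distal; Dclk1 carries 5 islands, the tallest of 174 reads, and the panels of Stmn3 and Map4 are empty.

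Stmn1 encodes stathmin itself, which is abundant in dividing cells and neural progenitors, and its island was, for its width, the fullest of the 3 at stathmin genes. The island (chromosome 4, 134466886 to 134469885, mm10) held 105 reads (exact Poisson 95% interval 85.9 to 127) over 3000 bp. It began 1434 bp outside the lower-coordinate end of the 5.52 kb gene and covered 28.3% of the gene. Among the 298 islands of the same width, whose median was 84 reads, it stood at percentile 92.6. Read counts rise with width, so this rank within a width is the better guide to how full an island is.

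Stmn2 encodes SCG10, a stathmin of growth cones and regenerating axons. Its island (chromosome 3, 8559201 to 8562400) held 100 reads (81.4 to 122) over 3200 bp, at percentile 80.6 among 263 islands of that width. It lay across the higher-coordinate end of the 52.1 kb gene, with 2404 bp inside and 796 bp beyond. No other island lay within 102 kb of the gene, whose nearest coding neighbour, the Notch target Hey1, was also 102 kb away.

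Stmn4 encodes RB3, a stathmin found in neurons. Its island (chromosome 14, 66343964 to 66345363) held 53 reads (39.7 to 69.3) over 1400 bp, of which 246 bp lay outside the lower-coordinate end of the 17.5 kb gene. By coordinate, Stmn1 and Stmn4 thus each had an island across the lower-coordinate end and 1 distal island on that side. Their strands were not tabled, so whether these are like ends of the genes is not known here. Stmn4 had roughly the count usual for such a narrow island (median 51 reads of 387 islands, percentile 68). The lncRNA gene Gm41183 ended 235 bp from this island.

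The distal islands both lay in the distal windows of stathmin genes, Stmn1 and Stmn4. Of the 10 genes, 2 thus had one, against 21.8% of all protein-coding genes, so the share was near that background. The one near Stmn1 (chromosome 4, 134449486 to 134451485) held 53 reads 16.8 kb from the gene, at percentile 2.4 among 501 islands of 2000 bp, and overlapped the lncRNA gene 1700021N21Rik. The one near Stmn4 (chromosome 14, 66323164 to 66325563) held 78 reads 18.6 kb from the gene, at percentile 79.1 among islands of 2400 bp, but lay nearer to Trim35, at 11.7 kb. Beyond the 50 kb limit, the next island after these was 65.6 kb from Stmn1, and the next lay 102 kb from Stmn2.

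Stmn3 encodes SCLIP, a stathmin of the nervous system that acts in neurite outgrowth. No island lay within 118 kb of this 8.04 kb gene (chromosome 2, 181306459 to 181314500), which stands 5.21 kb from Rtel1. Its start is 126 kb from the nearest island, one of 56 reads.

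Map1a and Map1b encode large relatives that are cut into heavy and light chains; Map1b is the earlier one in growing axons and Map1a the one of mature neurons. They are the genes with an island nearest to a tabled start. At Map1a the island (chromosome 2, 121289465 to 121290664) held 45 reads (32.8 to 60.2) over 1200 bp and spanned the start, from 137 bp before it to 1062 bp after it. At Map1b the island (chromosome 13, 99513246 to 99515445) held 66 reads (51 to 84) over 2200 bp and began 1157 bp downstream of the start. Both counts were at or below the median for their width, 47.5 and 66 reads, at percentiles 25.7 and 47.2.

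An island within 1 kb of a tabled start was thus found at 1 of the 6 genes, Map1a, against 9.41% of the 17492 protein-coding genes with such a start, which is near that background. The Map1a island also lay wholly inside Trp53bp1, the gene of the DNA damage protein 53BP1, whose annotated extent overlaps Map1a by 6765 bp. Trp53bp1 is on the - strand, and its only tabled start, at 121271407, is 18.1 kb from the island. That start lies inside the annotated extent, whose upstream end is at 121296354. The start of the lncRNA gene Gm26559, on the opposite strand, is 32 bp from that of Map1b and 1189 bp from the Map1b island.

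The promoters of Map1a, whose start is under an island, of Map1b, whose island lies just downstream, and of Stmn3, with no island near, are printed for comparison. Each runs from 250 bases before to 50 bases after the start, 5′ to 3′ on the gene's strand, from RefSeq on GRCm38.p6 (mm10). Capitals mark GC boxes (GGGCGG on either strand) and E-boxes (CANNTG).
Map1a, chr2:121289352-121289651, + strand: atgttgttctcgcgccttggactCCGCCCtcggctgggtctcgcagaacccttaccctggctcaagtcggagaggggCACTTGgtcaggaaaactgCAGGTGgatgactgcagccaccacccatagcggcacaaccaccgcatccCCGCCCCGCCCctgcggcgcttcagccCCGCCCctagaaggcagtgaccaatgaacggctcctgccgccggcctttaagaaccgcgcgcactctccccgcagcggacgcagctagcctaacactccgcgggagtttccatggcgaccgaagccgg
Map1b, chr13:99516553-99516852, - strand: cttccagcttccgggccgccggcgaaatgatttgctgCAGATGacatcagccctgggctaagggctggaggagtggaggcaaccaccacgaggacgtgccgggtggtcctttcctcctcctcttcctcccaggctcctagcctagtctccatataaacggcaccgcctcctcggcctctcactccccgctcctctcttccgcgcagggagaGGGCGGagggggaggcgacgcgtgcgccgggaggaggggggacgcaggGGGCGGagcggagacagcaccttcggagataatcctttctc
Stmn3, chr2:181314451-181314750, - strand: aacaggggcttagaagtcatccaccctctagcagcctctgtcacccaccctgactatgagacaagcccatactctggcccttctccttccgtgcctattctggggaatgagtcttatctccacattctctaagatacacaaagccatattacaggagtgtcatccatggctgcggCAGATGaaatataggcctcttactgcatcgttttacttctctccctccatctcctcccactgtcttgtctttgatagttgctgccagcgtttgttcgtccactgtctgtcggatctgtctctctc

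The Map1a promoter held 4 GC boxes, a pair of which overlap by a base, and the Map1b promoter 2, while the Stmn3 promoter held none; 46.2% of 21263 promoters of coding genes hold at least 1. GC boxes were not confined to starts near an island, since the Map2 promoter held 5 and the upstream Map4 promoter 3; in all, 4 of the 8 tabled promoters of the 6 genes held one. The island covered 187 of the 300 bases of the Map1a promoter, with 3 of its GC boxes and neither of its 2 E-boxes. An E-box stood once in each of the other promoters shown, both times as CATCTG on the opposite strand, a form found in 14.6% of promoters, while any E-box is found in 69%. The Map1a and Map1b promoters held 27 and 23 CpG dinucleotides and the Stmn3 promoter 6, where the median of all promoters was 13.

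Over the 8 tabled promoters of the 6 genes, CpG content split evenly. The promoters of Map2 (37) and Map1b and the upstream promoter of Map4 (42) were CpG-rich like that of Map1a. Those of Stmn3, of Dclk1 (5 and 6) and the downstream one of Map4 (5) were CpG-poor. CpG-rich promoters therefore stood both at a start under an island, Map1a, and at starts 146 kb (Map2) and 599 kb (Map4) from the nearest one. None of the 8 held the Gli motif TGGGTGGTC, which 0.179% of promoters hold, or the REST motif element TTCAGCACC, which 0.414% hold. The shorter Gli core GGGTGG was found in 4 of the 8, against 33.6% of promoters, and GGACAG, another REST element, in 1, against 22.3%. TTGGC, the core of the NFI motif, was found in 3 of 8, against 47.9%, and the full NFI palindrome in none, against 0.0329%. CCAAT was found in 4 (38.2% of promoters), TATAAA in 1, that of Map1b (12.6%), the E-box CAGCTG in 1, the downstream one of Map4 (15.6%), and TGACG, the core of the CRE motif TGACGTCA, in 1, the upstream one of Map4 (23.6%). The whole CRE motif was in none (2.23%). A match says only that the letters are there.

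Map2 encodes the main microtubule-associated protein of dendrites. Both of its islands lay deep in the 267 kb gene, 37.2 kb apart. The first (chromosome 1, 66321227 to 66323626) held 83 reads (66.1 to 103), 146 kb downstream of the start, at percentile 90.8 among 452 islands of that width. The second (66360827 to 66362626) held 56 reads (42.3 to 72.7), 185 kb downstream, at percentile 33.7 among 484. The nearest other island on the chromosome was 1641 kb from the gene.

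Mapt encodes tau, the axonal microtubule-associated protein. Its single island (chromosome 11, 104271087 to 104273086) had the highest density of the 13, at 9.30 reads per 200 bp, against a median of 6.27 over the list. It held 93 reads (75.1 to 114) over 2000 bp, where the median of the 501 islands of that width was 62, and only 8 of these, itself included, held as many or more (percentile 98.6). The island lay inside the 103 kb gene, 41.7 kb from its lower-coordinate end and 59.0 kb from its higher-coordinate end. No other annotated gene overlapped it.

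Map4 encodes a microtubule-associated protein of many tissues, not of neurons in particular. It had no island in its 154 kb (chromosome 9, 109929841 to 110083954), and the nearest lay 447 kb beyond its higher-coordinate end. Of the 4 genes over 100 kb, it was the only one without an island.

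Dclk1 encodes doublecortin-like kinase 1, which joins microtubule-binding doublecortin domains to a kinase domain and acts in neuronal migration. It had 5 islands with 436 reads in all, 42.0% of the 1037 reads counted for the 10 genes. The count of 5 includes the island of 116 reads, which lay mostly beyond the gene and overlapped the lncRNA gene Gm31796. At least 5 islands were found at 0.274% of all protein-coding genes and at 2.18% of those over 100 kb. Among 287 genes of 250 to 350 kb, near the 297 kb of Dclk1, 52.3% had no island, 22.0% had at least 2 (as Map2 did), 3.83% had at least 5, and the most was 10. The cut-off of 5 equals the count of Dclk1 itself, and the length range was set around its length. Neither was planned, so these shares are no test of whether Dclk1 is unusual.

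The Dclk1 islands fell into 3 places along the gene. Near the upstream start, an island of 42 reads (chromosome 3, 55248279 to 55249278) lay 5.92 kb downstream of it. In the first part of the gene, islands of 63 reads (55347079 to 55349478) and 41 reads (55354679 to 55355878) lay 5.2 kb apart, over 100 kb from either tabled start. All 3 held fewer reads than the median island of their width, at percentiles 41.8, 11.8 and 2.78.

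Near the downstream end of Dclk1 lay its islands with the most reads, which also ranked highest of the 5 within their widths, at percentiles 85 and 72.2. The first rank is among only 10 islands of that width, the second among 126. Both densities, 6.21 and 6.11 reads per 200 bp, were below the list's median of 6.27. One of 174 reads (149 to 202) covered 5600 bp (55520479 to 55526078), 58.8 kb downstream of the second start; 104 of the 5727 islands held more reads. The other, of 116 reads (95.9 to 139) over 3800 bp (55538679 to 55542478), lay 12.6 kb further on, across the downstream end of the gene, with 390 bp inside and 3410 bp beyond. In a comparison that was not planned, an island across the downstream end was found in 0.886% of the protein-coding genes with a tabled strand. This one overlapped the lncRNA gene Gm31796, whose start is 867 bp away, and lay 962 bp from that of Gm25404 on the other strand, so it cannot be given to Dclk1 alone.

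With Mapt and Map2, Dclk1 was also among the 3 of the 4 genes over 100 kb that had an island wholly inside and over 5 kb from both ends, against 28.7% of all coding genes of that length. Of the 13 islands, 12 overlapped no other coding gene, the exception being that of Map1a. The same share was not computed over the whole list, so this count does not mark these islands out.

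As a set, the 13 islands were near the list's medians in reads and width, and their median density and median rank within a width were above the middle. Their median was 66 reads (range 41 to 174) and 2200 bp (range 1000 to 5600), against 68 reads and 2200 bp over the whole list. Of the 13, 6 held more than the list's median reads, and 5 were at or above its upper quartile of 86. Their median density was 6.83 reads per 200 bp (range 5.25 to 9.30), against 6.27 over the list. None was among the 13 islands of the list with over 20 reads per 200 bp. Relative to islands of the same width, 7 were above the median and 5 below, and the median percentile was 68 (range 2.78 to 98.6). The 5 islands across a gene end held 45 to 116 reads (median 100), and the 8 inside genes 41 to 174 (median 64.5), so the ranges overlapped.

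**Figure D3:**
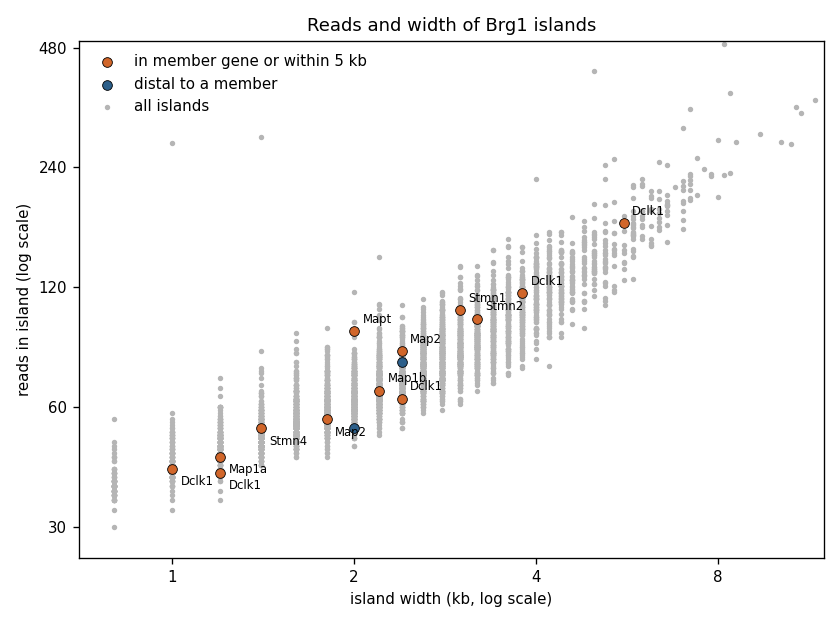
Reads (vertical axis, log scale) against width in kb (horizontal axis, log scale) of each Brg1 island, with the 13 islands touching the 10 genes in orange, the 2 distal islands in blue and all islands in grey; 64 islands lie outside the axes. The orange points lie within the spread of the list, with Mapt (93 reads, 2 kb) near the top of its width.

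Other microtubule genes were counted the same way in 6 lists with 89 genes, of which 33 (37.1%, Wilson 95% interval 27.8 to 47.5) had an island in the gene or within 5 kb. Over 100 kb the share was 20 of 30, from 20 to 100 kb 9 of 41, and under 20 kb 4 of 18. These shares were 66.7, 22.0 and 22.2%, against 39.9, 19.4 and 10.2% of all coding genes of those lengths. Median gene length differed between the lists, from 35.4 kb (enzymes that modify tubulin) to 87.8 kb (CRMP genes). The 16.7% of all coding genes set beside each list below is not matched for length. The lists were also chosen with earlier results of these data known, so no interval below is a test against that share.

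Other doublecortin and MAP families had islands in 10 of 23 (Wilson 95% interval 25.6 to 63.2%, against 16.7% of all coding genes). The islands named from here on are those with the most reads in their list, an order that width affects. They were at Tppp3, of the tubulin polymerisation-promoting proteins, with 149 reads over 4400 bp across a gene end, the neuron navigator gene Nav2 with 146 reads over 5600 bp inside, a count below the median of 148 for that width, Mtus1 with 128 and Map6d1 with 102. Nav2, like Dclk1, had 5 islands, and Dclk2, a paralogue of Dclk1, had 3, of 58, 61 and 67 reads. Dcx, the doublecortin gene itself, had none.

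Proteins of microtubule ends had islands in 10 of 18 genes (33.7 to 75.4%, against 16.7% of all coding genes). Those with the most reads were at Slain2, which aids growth at plus ends, with 153 reads over 4800 bp across a gene end, and inside Clasp2 (111 reads over 3800 bp), Dst (102 over 3600 bp) and Macf1 (88 over 3400 bp), which link microtubules to the cortex or to actin. The Clasp2, Dst and Macf1 islands had 5.84, 5.67 and 5.18 reads per 200 bp, below the list's median of 6.27. Kinases and cofactors that act on tau, MAPs or stathmins had them in 7 of 19 (19.1 to 59%, against 16.7%), led in reads by Dyrk1a with 121 reads across an end, Mapk10 with 89, Camk2b with 79 and Mark1 with 73.

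Enzymes that modify tubulin had islands in 4 of 15 genes (10.9 to 52%, against 16.7% of all coding genes), all named here. Vash1 (92 reads outside the gene, with another island of 71 inside) and Vash2 (76) encode enzymes that remove the terminal tyrosine of tubulin. Those of Ttll5 (81) and Ttll11 (53) add glutamate chains. The CRMP family, which binds tubulin dimers in growth cones, had islands in 2 of 5 genes, Dpysl3 (70 reads) and Dpysl4 (62). Its interval was 11.8 to 76.9%, beside the 16.7% of all coding genes. Severing enzymes, such as spastin and katanin, had none in 9 genes, which allows a share of up to 33.3% if 3 counts of 9 are taken as the limit and 29.9% by the Wilson 95% bound, both above the 16.7% of all genes.

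**Figure D4:**
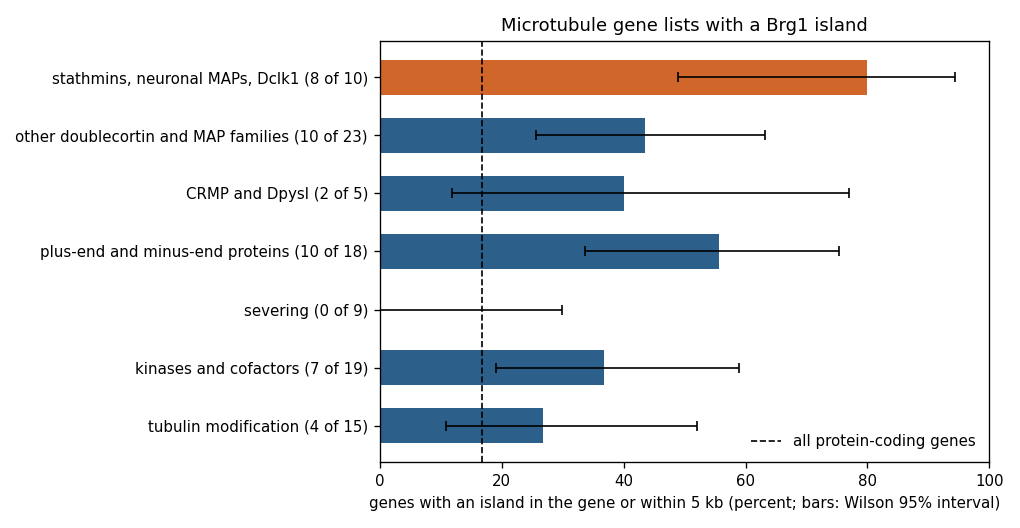
Percent of genes with a Brg1 island in the gene or within 5 kb (horizontal axis) for the 10 genes (orange, top) and 6 lists of other microtubule genes (blue), with Wilson 95% intervals as bars and all protein-coding genes as a dashed line at 16.7%. The interval of the 10 genes was 49 to 94.3%, and the Wilson upper bound of the 9 severing enzymes was 29.9%. These lists differ in median gene length, 73.6 and 37.2 kb, and were not tested against each other.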

How the data were processed

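The library was analysed from the authors' deposited island list, which gives chromosome, start, end and a whole number per island. That number was taken as the count of reads per island, from the deposited values and the column layout of SICER; it is not scaled for depth, and the library's total depth is unknown. Per the submitters' processing notes, Bowtie 0.12.7, Picard 1.127 and SICER 1.1 were used and the builds mm9 and mm10 are named; the role of each and the caller's settings are not given there. Widths were multiples of 200 bp in 5724 of 5727 islands. With positions read as mm10, 1508 islands lay within 1 kb of a tabled start of a coding gene, and 230 to 262 did with the list moved by 10, 50 or 200 kb. Coordinates are 1-based.

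Islands were assigned to RefSeq gene extents (GRCm38.p6), and counts of genes are printed beside those of all coding genes. Intervals on reads are exact Poisson and on shares Wilson, at 95%, and cover counting error only. Percentiles count ties in equal parts. In promoters, 14 motifs were searched on both strands. Named genes are the 10 genes, their islands and nearest genes, and up to 4 genes per related list by reads. Hey1, Dclk2 and Dcx were chosen after their values were seen. The genes and lists were chosen with earlier results of these data known. Overlap counting was tested on simulated data. Python 3.11.15, NumPy 2.4.6 and SciPy 1.17.1 were used.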

Additional observations from a re-analysis of the deposited data

How the results depend on the processing

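The count of 8 genes with an island was unchanged with windows of 0, 1, 2 and 10 kb, by island midpoint, by nearest gene only and without high-density islands. It was 5 with the 2938 islands that held at least the median number of reads (Stmn1, Stmn2, Mapt, Map2 and Dclk1), where the share of all coding genes was 9.54%, and 4 with the 1464 islands with reads at or above the upper quartile (without Map2), where that share was 5.15%. The related lists had 14 genes with an island at that cut-off. Distal islands were found for 1 gene when islands below the median were dropped, and for 1, Stmn1, where no other coding gene was nearer. With windows of 2 or 5 kb around a tabled start, 2 genes had an island (Map1a and Map1b); without islands below the median, 0 did. The islands so retained lay within 1 kb of either end of 3 genes instead of 5. The windows around either end were added after seeing the data. For these distal, start and end counts, the share of all coding genes was not computed at the changed settings. They therefore show only how the counts of these genes moved. In each case fewer islands, a stricter assignment or a wider window makes the difference. The other 33 of 44 alternative values stayed within 1.5 times the reported value. No paired analysis was possible because there is 1 ChIP library. With 1 library, the error between animals is unknown, and weakly enriched regions may lie below the caller's threshold.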
